A study of Mus musculus with 12 samples.

Results

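The genes described here are 10 scavenger and C-type lectin receptors of the myeloid cell surface, namely Msr1, Marco, Cd36, Scarb1, Olr1, Mrc1, Clec7a, Clec4n, Clec4d and Clec4e. They were chosen by symbol, as receptors that can bind or take up particles. The rule uses no measured value, although earlier results of these data were known when it was set. All 10 were among the 35303 gene symbols of the count table, and all 10 were among the 17676 symbols with enough counts to be tested.

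Scavenger receptors are a loose family of surface proteins that bind modified lipoproteins, polyanions, bacteria and debris and carry them into the cell. C-type lectin receptors hold a carbohydrate recognition fold, and several of them, such as Dectin-1 (Clec7a), Dectin-2 (Clec4n) and Mincle (Clec4e), pass a signal through Syk, either directly or through the adaptor chain encoded by Fcer1g. In macrophages, monocytes and neutrophils both families serve the recognition of microbes, dying cells and foreign particles, and macrophages also use them for lipid uptake.

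RNA-seq was performed on myeloid-derived suppressor cells (MDSCs), immunosuppressive myeloid cells that were grown here from the marrow of female C57BL/6 mice (WT by the labels) aged 6 to 10 weeks with IL-6 and GM-CSF for 3 days and purified as CD11b+Gr1+ cells, a mixture of granulocytic and monocytic subtypes. The 3 groups were unmodified MDSCs (MDSC), MDSCs carrying blank poly(lactide-co-glycolide) nanoparticles (MDSC-NP-Blk) and MDSCs carrying rapamycin-loaded nanoparticles (CITED), with 4 biologically independent replicates each. Particles were clicked through dibenzocyclooctyne to azido groups that a sugar analog had placed on the cell surface, and all groups were then held for 24 hours in medium with IL-6 at 40 ng/ml before lysis. Whether the unmodified cells had received the azido sugar is not stated, so that blank particles and the sugar cannot be told apart when MDSC-NP-Blk is set against MDSC. CITED differs from MDSC in both the particle and the drug, and there too the azido sugar cannot be told apart from them. Whether the unmodified cells went through the incubation and washes of the conjugation is also not stated. The labels give the tissue as CNS, although by the methods the cells came from marrow cultures.

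Each library held between 20604809 and 37855478 counts, so that the floor of 3 counts lay between 7.925e-06% and 1.456e-05% of a library, for counting error only. Of the markers of the labelled cells, Itgam (CD11b), Ly6g and Ly6c2 were high in every library, with lowest normalized counts of 50128, 3802 and 19071, and Ly6c1 was low, at 10.6 to 47.2. The libraries differed in how expression related to transcript length. Over 11231 genes, the rank correlation of a gene's deviation from its mean with the length of its transcript was 0.21 to 0.33 in MDSC, -0.32 to -0.18 in CITED, and -0.40, -0.05, 0.09 and -0.24 in MDSC-NP-Blk replicates 1 to 4. Values with a correction for this trend are therefore given wherever they change a result for a receptor. Fold changes given for all other genes are uncorrected, and the part of the trend in them was not tested.

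Fold changes are on the log2 scale, and a gene was called at a Benjamini-Hochberg adjusted p under 0.05 in edgeR's quasi-likelihood test if it also differed by 1 or more on the log2 scale in either direction. In CITED against MDSC, 2 of the 10 receptors were called higher (Clec4d and Clec7a) and 1 lower (Mrc1), beside 3.28% and 6.70% of all genes tested. At an adjusted p under 0.05 alone, 5 were higher and 2 lower, beside 22.2% and 22.2%. In MDSC-NP-Blk against MDSC, 1 was called higher (Clec4d) and 1 lower (Mrc1), beside 1.88% and 2.86%, and at an adjusted p under 0.05 alone 5 were higher and 3 lower, beside 19.9% and 18.6%. In CITED against MDSC-NP-Blk, which differ only in the rapamycin load, edgeR called 0 higher and 0 lower, beside 0.651% and 2.00%. At an adjusted p under 0.05 alone, 5 were higher and 1 lower in that comparison, beside 10.5% and 11.4%, with 7 of 10 at an unadjusted p under 0.05, and DESeq2 called 0 of them and placed 6 at an adjusted p under 0.05. The median log2 fold change of the 10 receptors was 0.45, 0.13 and 0.29 in the comparisons in this order, beside -0.05, -0.03 and 0.00 over all genes tested.

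**Figure D1:**
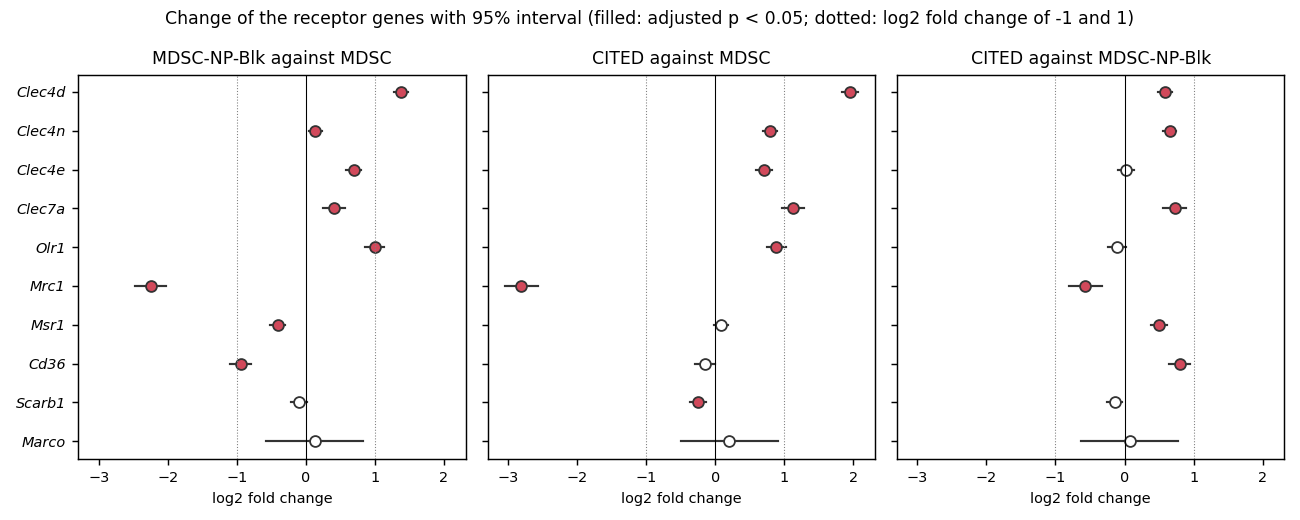
Log2 fold change of each receptor gene (x axis) with its 95% interval in the 3 comparisons, 1 gene a line, where filled points have an adjusted p under 0.05 and dotted lines mark a log2 fold change of -1 and 1. Clec4d lies farthest right and Mrc1 farthest left against MDSC in both panels, and no receptor passes a dotted line in CITED against MDSC-NP-Blk.

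The lectins of the Dectin-2 group sit side by side on mouse chromosome 6. Clec4n, Clec4d and Clec4e lie at chr6:123206802-123223980 (plus strand), chr6:123239070-123252230 (plus strand) and chr6:123258748-123266829 (minus strand) of GRCm39, within 60 kb, with gaps of 15.1 and 6.5 kb. They shared a direction against MDSC in CITED but differed in the size and in the step at which they moved.

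Clec4d encodes Dectin-3 (MCL), which pairs with Mincle and binds mycobacterial glycolipid, and against MDSC it had the largest rise of the 10 receptors. Its normalized counts were 3740, 4133, 3527 and 3954 in the MDSC libraries, 10091, 10281, 9969 and 9373 in MDSC-NP-Blk, and 15691, 15033, 14058 and 14566 in CITED. Every MDSC-NP-Blk library lay above every MDSC library, and every CITED library lay above both. The means were 3839 ± 263, 9928 ± 392 and 14837 ± 695 (SD, n = 4 each). Clec4d was higher in MDSC-NP-Blk than in MDSC by 1.37 on the log2 scale (SE 0.052, adjusted p = 1.7e-20). It was higher in CITED than in MDSC-NP-Blk by 0.58 (SE 0.0508, adjusted p = 5.3e-11). CITED exceeded MDSC by 1.95 (SE 0.0527, adjusted p = 3.7e-25), which is 3.865-fold. With the length correction these values against MDSC were 1.19 for MDSC-NP-Blk and 1.76 for CITED, both still called.

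Clec4n encodes Dectin-2, a receptor for the mannans of fungal walls. The MDSC libraries had normalized counts of 16229, 17647, 16375 and 17249, which compare with 18627, 19096, 19084 and 17251 in MDSC-NP-Blk and 31399, 29854, 27468 and 27931 in CITED. The CITED libraries stood clear of the other 8, whose groups overlapped each other. Clec4n rose by 0.79 in CITED against MDSC (SE 0.0483, adjusted p = 8.6e-16) and by 0.66 against MDSC-NP-Blk (SE 0.0482, adjusted p = 8e-13). The difference of blank particles from MDSC was 0.13 (95% interval 0.04 to 0.23, adjusted p = 0.025), and it turned to -0.06 with the length correction (adjusted p = 0.31). That small difference also lost its place under the threshold without MDSC replicate 1 or 3 (0.12 each, adjusted p = 0.095 and 0.081) or without MDSC-NP-Blk replicate 2 or 3 (0.12 each, adjusted p = 0.074 and 0.06). Of its 31-base words, 2.48% also occur in transcripts of another gene, the predicted gene Gm44147.

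Clec4e encodes Mincle, which recognizes mycobacterial cord factor and a protein released by dying cells. Normalized counts of Clec4e were 5437, 5273, 5065 and 5513 in MDSC, 8025, 9391, 9182 and 7710 in MDSC-NP-Blk, and 9183, 8210, 8552 and 8702 in CITED. Both particle groups were above all MDSC libraries and overlapped each other. Clec4e rose by 0.69 with blank particles (SE 0.056, adjusted p = 2.6e-12) and by 0.70 in CITED (SE 0.056, adjusted p = 8e-13). The difference between CITED and MDSC-NP-Blk was 0.01 with a 95% interval of -0.10 to 0.13 (adjusted p = 0.93), so that a change of the size seen for Clec4d or Clec4n with the drug lay outside the interval.

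**Figure D2:**
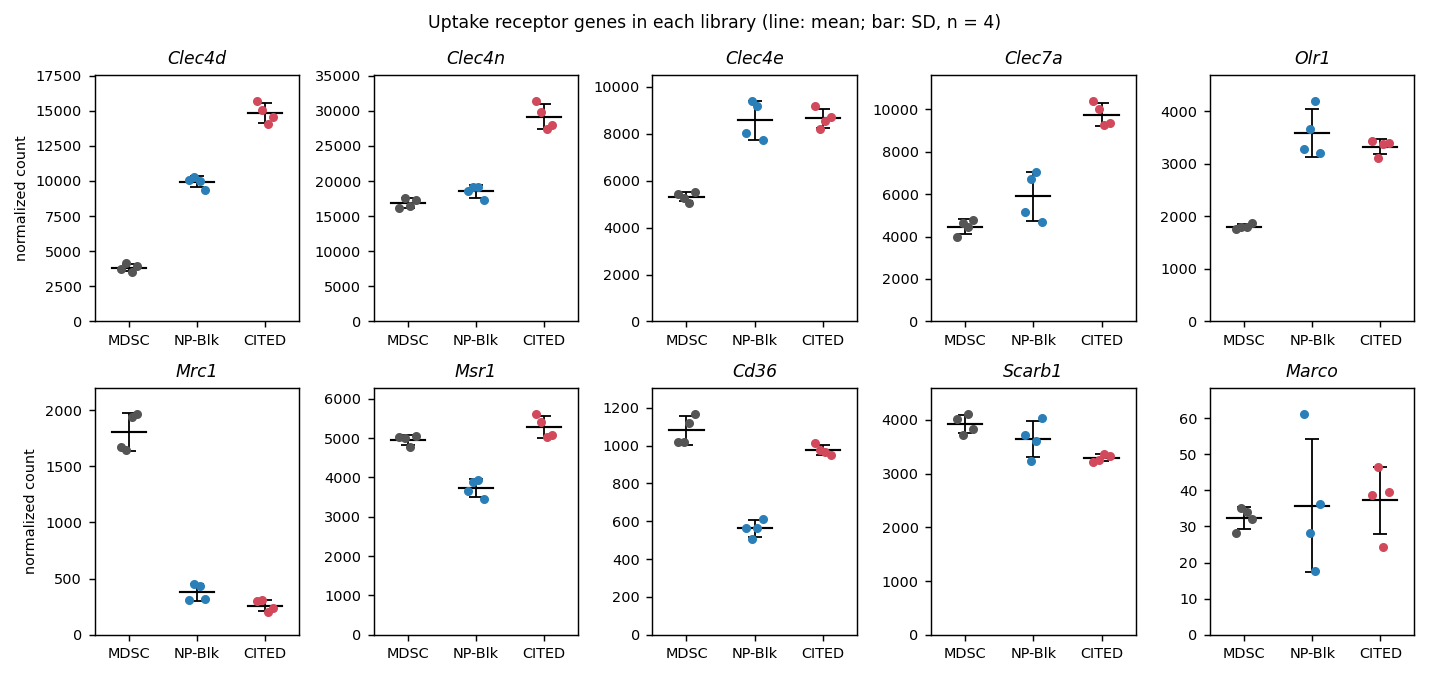
Normalized count of each receptor gene (y axis, linear from 0, 1 panel a gene) in the 4 libraries of MDSC, MDSC-NP-Blk and CITED, with the mean as a line and the SD as a bar. Clec4d climbs in 2 steps from a mean of 3839 to 9928 and 14837, Clec7a and Clec4n stand apart in CITED, Clec4e and Olr1 are alike in both particle groups, and Msr1 and Cd36 dip in MDSC-NP-Blk alone.

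A second pair of receptors lies farther along the same chromosome, Clec7a at chr6:129438554-129449742 and Olr1 at chr6:129462207-129484128, both on the minus strand and 12.5 kb apart. Clec7a encodes Dectin-1, the receptor for fungal beta-glucan that recruits Syk through its own tail. Clec7a had normalized counts of 3967, 4636, 4447 and 4773 in MDSC, 5137, 6691, 7040 and 4682 in MDSC-NP-Blk, and 10381, 10002, 9249 and 9326 in CITED. All CITED libraries were above the other 8, and MDSC-NP-Blk replicate 4 lay within the range of MDSC. The spread in MDSC-NP-Blk was the widest of the 3 groups, with a mean of 5887 ± 1153 (SD, n = 4) and a coefficient of variation of 19.6%, against 7.91% in MDSC and 5.60% in CITED. Clec7a rose by 1.13 in CITED against MDSC (SE 0.0816, adjusted p = 6.8e-14), by 0.72 in CITED against MDSC-NP-Blk (SE 0.0809, adjusted p = 1e-08), and by 0.40 in MDSC-NP-Blk against MDSC (SE 0.0811, adjusted p = 0.0001).

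The canonical Clec7a transcript is the shortest of the 10, at 707 bases, and Clec7a was the receptor whose calls depended most on length. With the length correction, CITED against MDSC was 0.86, under the fold threshold, and MDSC-NP-Blk against MDSC was 0.12 with an adjusted p of 0.31. When the longest transcript of each gene was used in place of the canonical one, an alternative chosen after seeing the data, they were 0.95 and 0.25, the latter with an adjusted p of 0.017. The difference between CITED and MDSC-NP-Blk moved little, to 0.74 and 0.71. The MDSC-NP-Blk libraries with more Clec7a, replicates 2 and 3, were also those with the weakest relation of expression to length, and its part in the spread was not tested.

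Olr1 encodes LOX-1, a lectin-like scavenger receptor for oxidized low-density lipoprotein that also marks granulocytic MDSCs in humans. In normalized counts, Olr1 was at 1753, 1795, 1796 and 1867 in MDSC, 3275, 3661, 4198 and 3217 in MDSC-NP-Blk, and 3445, 3109, 3376 and 3393 in CITED. Both particle groups were far above MDSC and overlapped each other. Olr1 rose by 0.99 with blank particles (SE 0.0647, adjusted p = 1.1e-14) and by 0.89 in CITED (SE 0.0648, adjusted p = 9e-14). The former sat at the fold threshold. It was 1.03 with the length correction, 1.01 with upper quartile factors, and 1.01, 1.03 and 1.04 without MDSC replicate 4, MDSC-NP-Blk replicate 1 or MDSC-NP-Blk replicate 4, and was then called. CITED and MDSC-NP-Blk differed by -0.11 (95% interval -0.24 to 0.02, adjusted p = 0.26).

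**Figure D3:**
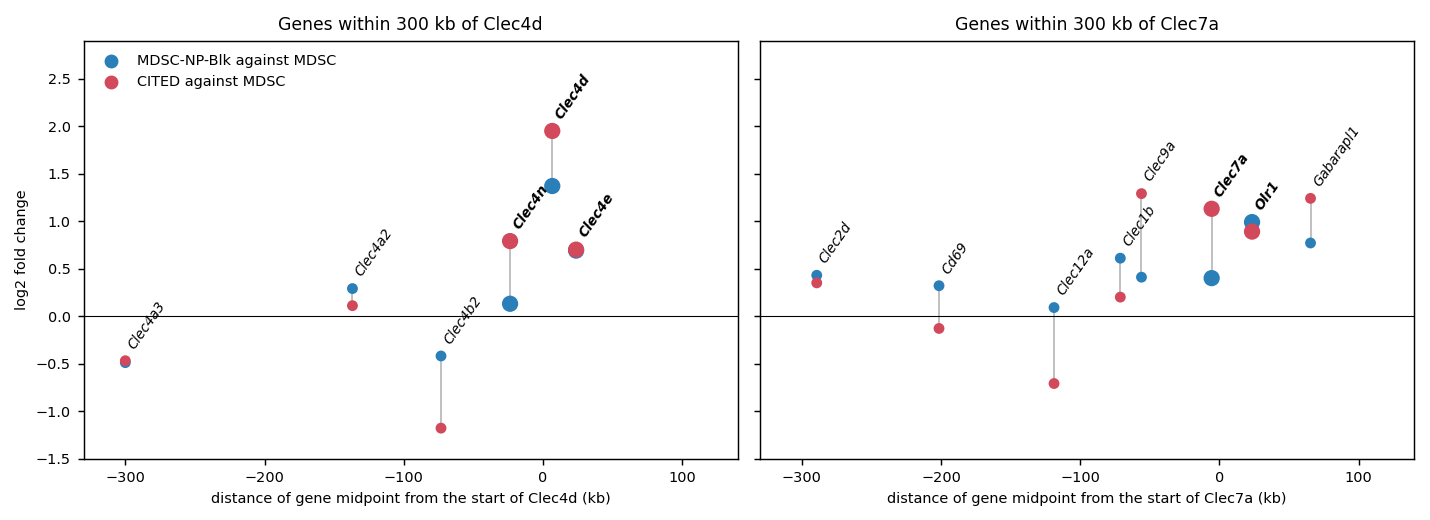
Log2 fold change against MDSC (y axis) of the genes with a mean normalized count of at least 50 within 300 kb of Clec4d (left) and Clec7a (right), by the distance of the gene's midpoint from the start of Clec4d or Clec7a in kb (x axis), in MDSC-NP-Blk (blue) and CITED (red). Clec4n, Clec4d, Clec4e, Clec7a and Olr1 (bold) lie above 0 in both groups, though Clec4n in MDSC-NP-Blk only without the length correction, whereas Clec4b2 is at -0.42 and -1.18 and Clec12a is at 0.09 and -0.71.

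The rise was not shared by every lectin gene around them. Near Clec4d, Clec4b2 fell by 1.18 in CITED against MDSC (adjusted p = 0.00011) and Clec4a3 fell by 0.47 (adjusted p = 0.013). Clec4a2, a lectin with an inhibitory motif, differed by 0.11 in CITED (adjusted p = 0.09) but rose by 0.29 in MDSC-NP-Blk (adjusted p = 1.4e-05). Near Clec7a, Clec12a, an inhibitory receptor for uric acid crystals, fell by 0.71 in CITED (adjusted p = 2e-14) and differed by 0.09 in MDSC-NP-Blk (adjusted p = 0.17). Clec9a, the receptor for actin exposed on dead cells, rose by 1.29 in CITED (adjusted p = 5.9e-06), and Gabarapl1, an autophagy gene that is no lectin, rose by 1.24 (adjusted p = 4.4e-19). Clec2d rose by 0.35 in CITED (adjusted p = 0.00083) and by 0.43 in MDSC-NP-Blk (adjusted p = 8.8e-05). Clec1b was at 0.20 in CITED (adjusted p = 0.35) and rose by 0.61 in MDSC-NP-Blk (adjusted p = 0.002).

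The promoters of the 5 receptors that rose in CITED, and that of Mrc1, which fell, are shown so that genes that moved together can be read side by side. Each is the sequence of GRCm39 before the start of the canonical transcript in GENCODE M39, up to 250 bases, on the strand of the gene, and without bases in any annotated exon, which shortened Clec4d to 108 bases and Clec7a to 248. The intervals were chr6:123206552-123206801 (plus strand) for Clec4n, chr6:123238962-123239069 (plus strand) for Clec4d, chr6:123266830-123267079 (minus strand) for Clec4e, chr6:129449743-129449990 (minus strand) for Clec7a, chr6:129484129-129484378 (minus strand) for Olr1, and chr2:14233901-14234150 (plus strand) for Mrc1. Capitals mark a match to a searched motif, here the AP-1 letters TGAGTCA.
Clec4n: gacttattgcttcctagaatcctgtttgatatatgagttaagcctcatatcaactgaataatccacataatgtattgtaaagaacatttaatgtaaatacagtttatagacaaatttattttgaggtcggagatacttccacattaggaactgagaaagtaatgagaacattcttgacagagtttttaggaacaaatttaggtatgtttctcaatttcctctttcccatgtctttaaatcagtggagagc
Clec4d: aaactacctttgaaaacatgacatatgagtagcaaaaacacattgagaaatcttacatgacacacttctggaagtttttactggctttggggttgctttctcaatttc
Clec4e: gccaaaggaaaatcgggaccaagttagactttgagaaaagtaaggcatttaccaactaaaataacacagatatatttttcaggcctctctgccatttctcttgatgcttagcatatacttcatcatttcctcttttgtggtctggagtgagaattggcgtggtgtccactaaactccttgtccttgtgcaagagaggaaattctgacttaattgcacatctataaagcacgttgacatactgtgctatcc
Clec7a: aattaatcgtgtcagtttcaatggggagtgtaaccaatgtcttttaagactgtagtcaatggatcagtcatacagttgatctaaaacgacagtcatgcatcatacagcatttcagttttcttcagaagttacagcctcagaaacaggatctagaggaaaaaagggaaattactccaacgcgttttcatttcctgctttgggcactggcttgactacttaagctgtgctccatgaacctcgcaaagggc
Olr1: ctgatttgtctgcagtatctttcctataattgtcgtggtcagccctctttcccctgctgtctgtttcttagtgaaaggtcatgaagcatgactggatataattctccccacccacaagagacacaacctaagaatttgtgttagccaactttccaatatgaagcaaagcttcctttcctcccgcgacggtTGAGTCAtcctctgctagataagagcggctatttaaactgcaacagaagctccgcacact
Mrc1: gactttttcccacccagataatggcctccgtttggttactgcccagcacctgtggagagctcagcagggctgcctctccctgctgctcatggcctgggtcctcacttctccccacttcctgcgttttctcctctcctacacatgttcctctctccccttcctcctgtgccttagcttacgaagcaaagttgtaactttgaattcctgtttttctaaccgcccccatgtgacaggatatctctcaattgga

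Both strands of the full 250 bases were searched for 6 motifs in the 10 receptors and in all 21738 promoters. The AP-1 letters TGAGTCA or TGACTCA were found in the promoter of Olr1 only, 60 bases before its start, and in 4.03% of all promoters. The letters TTGCGCAA (C/EBP), GAGGAAGT (PU.1), GGGACTTTC or GGAATTTCC (NF-kB), CACGTG (the E-box of the MiT/TFE and Myc families) and TGACNNNGC (the antioxidant response element) were in 0 of the 10 and in 0.166%, 2.08%, 0.607%, 6.26% and 9.68% of all promoters. A match is a string of letters and not a site of binding, and the absence of one holds for these letters in this window only.

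Mrc1 was the receptor that fell most. It encodes the macrophage mannose receptor CD206, a recycling endocytic receptor for mannose-bearing glycoproteins that is used as a marker of alternatively activated macrophages, and it lies at chr2:14234151-14336926 on the plus strand. Normalized counts of Mrc1 were 1672, 1640, 1941 and 1962 in MDSC, 312, 449, 434 and 317 in MDSC-NP-Blk, and 296, 306, 198 and 235 in CITED. All 8 particle libraries lay far below MDSC, and all CITED libraries lay below all MDSC-NP-Blk libraries. Mrc1 fell by 2.24 with blank particles (SE 0.111, adjusted p = 1.1e-17) and fell by 2.81 in CITED (SE 0.116, adjusted p = 2.8e-20), 4.726-fold and 7-fold. CITED was lower than MDSC-NP-Blk by a log2 difference of -0.57 (SE 0.121, adjusted p = 0.00052).

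In bulk RNA, fewer cells of a type and less RNA per cell cannot be told apart, and other macrophage genes moved with Mrc1. Of 10 macrophage markers, 4 were called lower in MDSC-NP-Blk and 4 in CITED, namely C1qa, C1qb, C1qc and Cd5l in both, while Adgre1, a classical macrophage marker, was at 0.02 (adjusted p = 0.87) and 0.24 (adjusted p = 0.0023). C1qb, a chain of the first complement component, fell by 1.61 with blank particles (adjusted p = 3e-13) and fell by 3.01 in CITED (adjusted p = 1.7e-19). The summed normalized count of the 10 markers ranged from 6794 to 7294 in the MDSC libraries, from 4295 to 5717 with blank particles and from 5095 to 5299 in CITED, and 0 of the 10 were at 0 in every library. Adgre1 was the largest part of this sum, with means of 3766, 3806 and 4445 in the same order. In CITED against MDSC-NP-Blk, 3 of these macrophage markers were called lower and 0 higher, namely C1qa (-2.42), C1qb (-1.41) and C1qc (-2.10), while Adgre1 was at 0.22 (adjusted p = 0.011). The part of these cells in the fall of Mrc1 was not tested. Mgl2, a galactose-type lectin of macrophages and dendritic cells, fell by 1.24 with blank particles (adjusted p = 1.1e-17) and by 1.69 in CITED (adjusted p = 1.9e-21).

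Among the class A scavenger receptors, Msr1 dipped with blank particles and was near the MDSC level in CITED. Msr1 (chr8:40034726-40095714, minus strand) encodes the macrophage scavenger receptor SR-A, which binds modified lipoproteins and other polyanions. Msr1 had normalized counts of 5022, 4994, 4778 and 5060 in MDSC, 3663, 3880, 3931 and 3443 in MDSC-NP-Blk, and 5605, 5409, 5016 and 5081 in CITED. The MDSC-NP-Blk libraries lay below all others, and the other groups overlapped. Msr1 fell by 0.41 with blank particles (SE 0.0519, adjusted p = 4.5e-08), and CITED exceeded MDSC-NP-Blk by 0.50 (SE 0.052, adjusted p = 2.3e-09). CITED against MDSC was 0.09 with an interval of -0.02 to 0.19 (adjusted p = 0.18), and -0.09 with the length correction.

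Marco (chr1:120402267-120432753, minus strand), a class A receptor of tissue macrophages for bacteria and inhaled particles, was barely expressed. Its normalized counts lay between 28.2 and 35.1 in MDSC, between 17.7 and 61.1 in MDSC-NP-Blk and between 24.4 and 46.4 in CITED, with medians of 33.1, 32.2 and 39.2. The groups overlapped throughout. CITED against MDSC was 0.20 (95% interval -0.50 to 0.91, adjusted p = 0.68), and differences within this interval were not detectable at this depth.

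Cd36 (chr5:17986432-18094067, minus strand), a class B scavenger receptor for oxidized lipoprotein, long-chain fatty acids and apoptotic cells, followed the pattern of Msr1 with a larger dip. In normalized counts, Cd36 was at 1019, 1017, 1120 and 1166 in MDSC, 564, 508, 565 and 615 in MDSC-NP-Blk, and 1012, 975, 968 and 949 in CITED. The MDSC-NP-Blk libraries lay below all others, and the CITED libraries were just under the lowest MDSC library. Cd36 fell by 0.94 with blank particles (SE 0.0756, adjusted p = 1.9e-12), and CITED exceeded MDSC-NP-Blk by 0.80 (SE 0.0763, adjusted p = 3.7e-10). CITED against MDSC was -0.15 with an interval of -0.30 to 0.00 (adjusted p = 0.11), and -0.16 with an adjusted p of 0.049 when only the 8 libraries of the comparison were fitted.

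Scarb1 (chr5:125353547-125418176, minus strand), the receptor SR-BI for high-density lipoprotein, showed small differences. Scarb1 had normalized counts of 4013, 3723, 4103 and 3837 in MDSC, 3721, 3226, 3606 and 4039 in MDSC-NP-Blk, and 3218, 3258, 3373 and 3332 in CITED. The CITED libraries lay below all MDSC libraries, and MDSC-NP-Blk overlapped both. Scarb1 fell by 0.25 in CITED against MDSC (SE 0.0566, adjusted p = 0.00036), and its value there was -0.30 with the length correction. MDSC-NP-Blk against MDSC was -0.10 (adjusted p = 0.15), which became -0.16 (adjusted p = 0.015) with the length correction and -0.16 (adjusted p = 0.024) without MDSC-NP-Blk replicate 4. CITED against MDSC-NP-Blk was -0.14 (adjusted p = 0.065), with adjusted p of 0.04 with the length correction and 0.044 with robust estimation of the spread, and it became -0.20 (adjusted p = 0.0089) without MDSC-NP-Blk replicate 2.

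**Figure D4:**
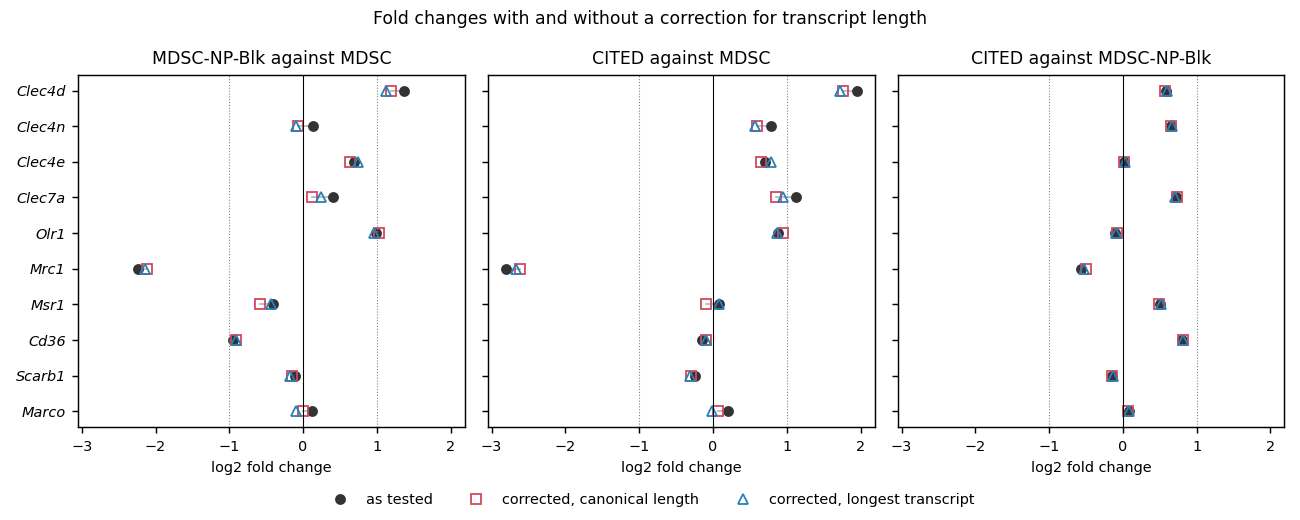
Log2 fold change of each receptor gene (x axis) in the 3 comparisons as tested (filled circles) and after a correction for transcript length with the canonical (squares) or longest (triangles) transcript of each gene. Clec7a moves from 1.13 to 0.86 and 0.95 in CITED against MDSC and Clec4n from 0.13 to -0.06 and -0.10 in MDSC-NP-Blk against MDSC, while in CITED against MDSC-NP-Blk the points nearly coincide.

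The libraries of MDSC-NP-Blk varied more than those of the other groups for several of these genes. Replicates 2 and 3 were higher than replicates 1 and 4 for Msr1, Olr1, Mrc1, Clec7a, Clec4n and Clec4e, whereas Scarb1 and Marco were lower in replicates 2 and 3, Cd36 was lowest in replicate 2 and highest in replicate 4, and for Clec4d replicate 1 exceeded replicate 3. The coefficient of variation in MDSC-NP-Blk was 12.6% for Olr1 and 9.72% for Clec4e, against 2.62% and 3.73% in MDSC.

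Per length, Clec4n was the most abundant receptor in all 3 groups. Its mean normalized count per kilobase of canonical transcript was 13587 in MDSC (13067 to 14209), 14907 in MDSC-NP-Blk (13890 to 15375) and 23481 in CITED (22116 to 25281). In MDSC it was followed by Clec7a at 6303, Msr1 at 3486, Clec4d at 2888, Clec4e at 2114, Scarb1 at 1543, Olr1 at 505, Mrc1 at 329, Cd36 at 308 and Marco at 16.8 per kilobase. Neighbours in this order were separated by more than the spread of their libraries except Mrc1 (299 to 358) and Cd36 (290 to 333). Clec4d rose from 2888 to 7471 per kilobase in MDSC-NP-Blk and 11164 in CITED, taking the place of Msr1 behind Clec7a, with overlapping libraries of Clec7a (6622 to 9957) and Clec4d (7053 to 7736) in MDSC-NP-Blk. In CITED the order ran Clec4n, Clec7a at 13776, Clec4d, Msr1 at 3706, Clec4e at 3440, Scarb1 at 1298, Olr1 at 932, Cd36 at 278, Mrc1 at 47.2 and Marco at 19.4 per kilobase, and only Msr1 (3522 to 3936) and Clec4e (3261 to 3647) overlapped.

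The order depends on which transcript is taken as the gene. By the longest annotated transcript, Clec7a fell behind Clec4d in each group, and Clec4n stayed first and Marco last. The summed normalized count of the 10 receptors lay between 42880 and 45414 in MDSC, between 50683 and 58024 in MDSC-NP-Blk and between 72281 and 80270 in CITED, with no overlap. This sum is not per length and follows the most abundant genes, Clec4n most, with means of 16875, 18514 and 29163. It does not stand for each receptor, as 5 were higher and 2 lower in CITED against MDSC at an adjusted p under 0.05.

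**Figure D5:**
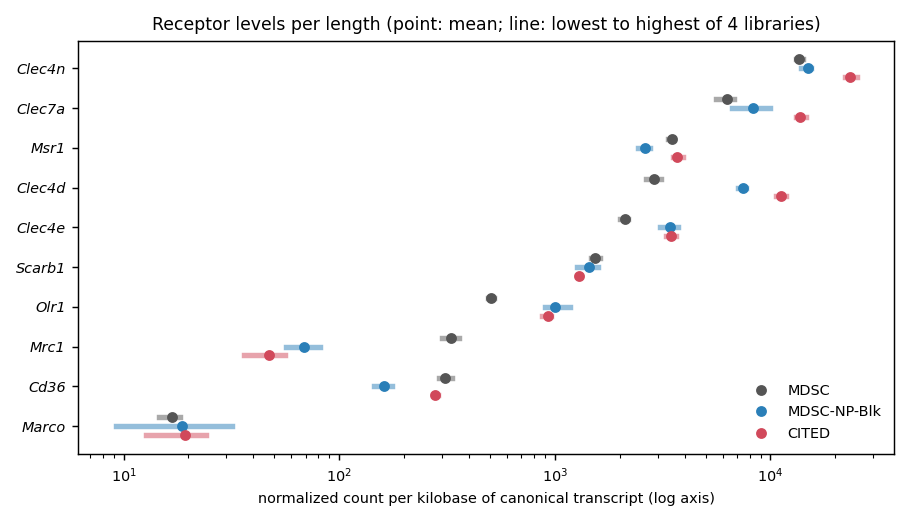
Normalized count per kilobase of canonical transcript (x axis, log scale) of each receptor gene in MDSC, MDSC-NP-Blk and CITED, with the mean as a point and the lowest to highest of 4 libraries as a line. Clec4n is at the top in each group, from 13587 in MDSC to 23481 in CITED, Marco is at the bottom under 50, and Mrc1 lies above Cd36 in MDSC and below it in both particle groups.

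The genes whose profile over the 12 libraries was nearest to that of each receptor were found by the root mean square difference of their centred log2 values, among 10555 genes, as a description. Clec4d was nearest to Fth1, the ferritin heavy chain, at 0.069, whose means were 143795, 348769 and 538902 in MDSC, MDSC-NP-Blk and CITED. Clec7a was nearest to Mpeg1, which encodes the pore-forming protein perforin-2, at 0.082, and Clec4n to Cd200r1, an inhibitory receptor, at 0.052. Clec4e was nearest to Cd33 at 0.060, and Olr1 to Ccrl2, a chemerin-binding receptor, at 0.066. Msr1 was nearest to Lipa, the lysosomal acid lipase, at 0.068, Cd36 to Plxna1 at 0.112, and Scarb1 to Mfsd13a at 0.057. The nearest to Mrc1 were farther off, Kif24 at 0.304 and Tspoap1 at 0.316.

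Within the receptors, the nearest pairs were Olr1 and Clec4e at 0.137, Clec7a and Clec4n at 0.189, and Msr1 and Cd36 at 0.243. All of these distances share the same 12 libraries and their depth.

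The lists below are read against all genes tested, of which, at an adjusted p under 0.05, 22.2% were higher and 22.2% lower in CITED against MDSC, 19.9% and 18.6% in MDSC-NP-Blk, and 10.5% and 11.4% between the particle groups. Counts called are read against smaller shares. Of all genes tested, 3.28% were called higher and 6.70% lower in CITED against MDSC. The shares called were 1.88% and 2.86% in MDSC-NP-Blk, and 0.651% and 2.00% between the particle groups. Of 16 other scavenger receptors, 15 were tested. In CITED against MDSC 3 were higher and 2 lower at an adjusted p under 0.05, shares no larger than those of all genes. With the fold threshold 2 were called higher and 0 lower, beside 3.28% and 6.70% of all genes. The median was -0.27 beside -0.05 over all genes, but 0.12 beside 0.02 for the 7 with a mean normalized count of at least 50. Cd68, a lysosomal receptor of macrophages, rose by 1.06 in CITED (adjusted p = 4.9e-19) and by 0.25 in MDSC-NP-Blk (adjusted p = 6.9e-05). Cxcl16, a membrane chemokine that also binds oxidized lipoprotein, rose by 1.33 and 1.24 (adjusted p = 1.2e-17 and 2.9e-16). In MDSC-NP-Blk 3 were higher and 3 lower, with 1 called higher and 2 lower, and the median was -0.66 beside -0.03, but 0.12 beside 0.00 for the same 7. Stab1, which encodes the clearance receptor stabilin-1, fell by 1.27 with blank particles (adjusted p = 1.4e-11) and by 0.44 in CITED (adjusted p = 0.00071), and CITED exceeded MDSC-NP-Blk by 0.83 (adjusted p = 6e-07). In that last comparison 3 of the list were higher and 1 lower, with 0 called. The median there was 0.40 beside 0.00, but 0.20 beside 0.01 for the same 7.

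Of 22 other C-type lectin receptors, 18 were tested. In CITED against MDSC 3 were higher and 8 lower, with 1 and 3 called and a median of -0.41 beside -0.05, so that most of those past the threshold went the opposite way to Clec4d, Clec4n, Clec4e and Clec7a. In MDSC-NP-Blk 4 were higher and 4 lower, with 0 and 2 called and a median of -0.13 beside -0.03, but 0.14 beside 0.00 for the 12 with a mean of at least 50. In CITED against MDSC-NP-Blk 2 were higher and 5 lower, with 0 called. The median there was -0.04 beside 0.00, but -0.22 beside 0.01 for the same 12. Clec5a, a receptor that signals through DAP12 and was named after its values were seen, rose by 0.54 in CITED (adjusted p = 6.1e-10) and by 0.19 in MDSC-NP-Blk (adjusted p = 0.0074).

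Of 18 signalling genes below these lectins, all tested, 12 were higher and 3 lower in CITED against MDSC at an adjusted p under 0.05 (2 and 0 called, median 0.34 beside -0.05), 12 were higher and 2 lower in MDSC-NP-Blk (0 called, median 0.29 beside -0.03), and 5 were higher and 2 lower between CITED and MDSC-NP-Blk (0 called, median 0.09 beside 0.00). Tyrobp, the DAP12 adaptor chain, rose by 1.26 in CITED (adjusted p = 7.5e-21) and by 0.91 in MDSC-NP-Blk (adjusted p = 1.1e-16), and Src, a tyrosine kinase, by 1.07 and 0.67 (adjusted p = 2.4e-12 and 1.3e-07).

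The members of the Syk and CARD9 route were named for their role after their values were seen. Fcer1g, the adaptor chain of Dectin-2 and Mincle, rose by 0.92 in CITED (adjusted p = 1.8e-16) and 0.74 in MDSC-NP-Blk (adjusted p = 1e-13). Syk rose by 0.43 and 0.33 (adjusted p = 6.3e-09 and 1.4e-06), and Bcl10 by 0.83 and 0.84 (adjusted p = 2.7e-15 and 4.2e-15). Card9, which joins Syk to Bcl10, was at 0.16 and 0.10 (adjusted p = 0.074 and 0.29), and Plcg2 fell by 0.31 and 0.13 (adjusted p = 1.3e-06 and 0.034). Ptpn11, a phosphatase, fell by 0.27 and 0.20 (adjusted p = 0.00036 and 0.011), and Vav3 and Inpp5d did not pass the threshold against MDSC in either particle group.

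Of 17 genes that handle lipid taken up by receptors such as CD36, 9 were higher and 6 lower in CITED against MDSC (2 called each way, median 0.29 beside -0.05), 8 and 5 in MDSC-NP-Blk (2 called each way, median 0.09 beside -0.03), and 8 and 5 between CITED and MDSC-NP-Blk (0 called, median 0.18 beside 0.00). Npc2, the lysosomal cholesterol carrier, rose by 1.5 in CITED and 1.04 in MDSC-NP-Blk (adjusted p = 1.7e-22 and 7.2e-18), and Plin2, the coat protein of lipid droplets, by 1.19 and 0.63 (adjusted p = 3.5e-20 and 1.3e-12). Lpl, lipoprotein lipase, fell by 1.11 and 0.78 (adjusted p = 3.2e-18 and 7.1e-14), while Fabp5, a fatty acid carrier, was at -0.93 and -1.22 (adjusted p = 2.1e-14 and 8.9e-17). Pparg, a nuclear receptor known to induce Cd36 and named after its values were seen, fell by 0.56 in CITED (adjusted p = 3.5e-05) and was at 0.09 in MDSC-NP-Blk (adjusted p = 0.51).

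Of 18 receptors and adaptors for apoptotic cells, 4 were higher and 8 lower in CITED against MDSC (2 and 1 called, median -0.25 beside -0.05), 3 and 8 in MDSC-NP-Blk (0 and 1 called, median -0.16 beside -0.03), and 2 and 3 between CITED and MDSC-NP-Blk (0 called, median 0.11 beside 0.00). Mertk, the receptor tyrosine kinase that binds dying cells through bridging proteins, fell by 1.08 in CITED (adjusted p = 2.4e-09) and by 0.77 in MDSC-NP-Blk (adjusted p = 1.7e-06). The genes called higher in CITED were low ones, Gas6, a bridging protein for Mertk, at 1.27 (means of 31.52 and 12.95, adjusted p = 0.025) and Adgrb1, a phosphatidylserine receptor, at 1.86 (means of 13.6 and 3.76, adjusted p = 0.047). Tyro3, also a low gene, was called lower in MDSC-NP-Blk against MDSC, at -1.49 (means of 13.17 and 38.15, adjusted p = 0.0033). Its libraries in these groups overlapped.

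Markers of other cell types were set beside the receptors as summed normalized counts. Granulocytic markers (12 genes) ranged from 882199 to 985330 in the MDSC libraries, from 1251808 to 1314759 with blank particles and from 940703 to 1060181 in CITED. Monocytic markers (10 genes) ranged from 44147 to 46651, from 60447 to 62124 and from 46073 to 49272, so both sums were highest with blank particles, clear of the other groups. The sums follow the most abundant genes, and single markers moved both ways. In CITED against MDSC, 4 granulocytic markers were called higher, Retnlg (1.61), Csf3r (1.54), Mmp8 (1.47) and Mmp9 (1.23), and 2 lower, Camp (-1.21) and the neutrophil elastase gene Elane (-3.27). In MDSC-NP-Blk, Retnlg (1.57) and Csf3r (1.34) were called higher and 0 lower. Of the monocytic markers, Ccr2 (-1.18) and F13a1 (-2.63) were called lower in CITED, and Cx3cr1 (1.07) was called higher in MDSC-NP-Blk. Dendritic markers ranged from 15862 to 16572, from 13084 to 14201 and from 14772 to 15860 in the same order, and mast cell and basophil markers from 12535 to 13446, from 14636 to 15869 and from 8458 to 8762. Endothelial and stromal markers stayed between 1329 and 2111, lymphocyte markers between 52.0 and 152 and erythroid markers between 46.3 and 73.8. The part of these cells in the changes of the receptors was not tested.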

How the data were processed

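Per the labels and the methods of the study, RNA of the 12 libraries was enriched for poly(A) and sequenced in pairs. The authors quantified transcripts of GENCODE (GRCm39, release not given in the sources used here) with Salmon 1.4.0 and summed them per gene in R 4.3.2, and the deposited values are whole-number counts per gene symbol, with no normalization or filter. Groups came from the sample titles. An entry with an empty symbol, which held 0 counts, was left out, and 16796 symbols had 0 counts in every library.

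Symbols with 2 or more counts in all were tested in 1 model of group, over the 12 libraries, with edgeR 4.0.16 (TMM, glmQLFit and glmQLFTest, R 4.3.3), with Benjamini-Hochberg adjustment over all genes tested. TMM factors were 1.118 to 1.148 in MDSC and 0.921 to 0.947 in the particle groups. Normalized counts are counts per effective library size, scaled to the mean library. Canonical transcripts of GENCODE M39 gave lengths for 99.8% of genes, and the length correction was a loess curve (span 0.5) per library. The receptors and all lists were chosen with earlier results of these data known. All 10 receptors are named in each comparison, with up to 2 called genes per list, direction and comparison, and the nearest profiles. Alternatives were DESeq2 1.42.0, other factors and filters, robust spread, 8 libraries alone, a replicate block, length corrections and each library left out. On simulated data for CITED against MDSC, 200 of 200 changed genes among 17306 were recovered. Recovery at the smaller fold changes seen for most receptors, and with the length trend present, was not tested. Figures used matplotlib 3.10.9.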

Additional observations from a re-analysis of the deposited data

Results flagged for a closer look

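Of 102 sets of 4 libraries examined for a value far from the others, 2 stood out, and chance alone marks about 1 in 20. Ly6g, a granulocytic marker of the labelled cells, was at a normalized count of 4356 in CITED replicate 4, against 4621 to 4643 in the other CITED libraries. Ly6c1, a low marker, was at 30.0 in CITED replicate 1, against 10.6 to 13.3 in the others. No such library was found for any of the 10 receptors.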

How the results depend on the processing

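The number of receptors called was 2 to 3 over 10 alternatives and 3 in each fit without 1 library for CITED against MDSC (3 as reported), 2 to 3 over both kinds for blank particles against MDSC (2 as reported), and 0 throughout between CITED and MDSC-NP-Blk. At an adjusted p under 0.05 alone, the counts were 7 to 8 and 7, 7 to 8 and 7 to 9, and 6 to 7 and 6 to 7, against 7, 8 and 6 as reported. Of the fold changes of single receptors, 525 kept their side of the threshold, with changes of sign only where neither value passed it (such as Msr1 in CITED against MDSC, at -0.09 with the length correction), 8 newly passed it, 5 lost it, and 2 reversed. Both that reversed were Clec4n in MDSC-NP-Blk against MDSC, at -0.063 with the length correction and -0.102 with longest transcripts (adjusted p = 0.092), an alternative chosen after seeing the data. The same alternatives took Clec7a under the fold threshold in CITED against MDSC, at 0.86 and 0.95. The replicate block changed no call, and moved only the receptor named below across the adjusted p threshold.

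Libraries with the same replicate number did not deviate together, with correlations between -0.054 and 0.099 over 11244 genes, so the number was not taken to pair them. With the replicate number as a block, 3, 2 and 0 receptors were called and 7, 8 and 7 had an adjusted p under 0.05, with Scarb1 added in CITED against MDSC-NP-Blk (-0.14, adjusted p = 0.042). That fit estimated an infinite prior number of degrees of freedom, against 23.8 without the block, and its p-values are accordingly small. Depth limits Marco most, the only receptor with a mean normalized count under 50.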
